A study of Mus musculus with 6 samples.

Results

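The genes examined are the 9 that encode the hypoxia-inducible factors (HIFs) and the proteins that hold them in check. They are the alpha subunits Hif1a, Epas1 (also called HIF-2alpha) and Hif3a, their common partner Arnt, the ubiquitin ligase subunit Vhl, which the array files name by its older symbol Vhlh, the asparaginyl hydroxylase Hif1an, and the prolyl hydroxylases Egln1, Egln2 and Egln3. Non-control probes were chosen by the gene name in the scanner files, which gave 17 of 41174 probes. The name Hlf, once used for Epas1, belongs on this array to a different gene, hepatic leukemia factor, and was not taken as a member. All 9 genes had at least 1 probe well above background on 3 or more arrays and so were among the 21059 genes compared, and 16 of the 17 probes passed.

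When oxygen is plentiful, the prolyl hydroxylases modify the HIF alpha subunits, Vhl then binds them, and the proteasome removes them. When oxygen is short, the alpha subunits persist, pair with Arnt and switch on genes for glycolysis, vessel growth and red cell formation, among them Egln3 and Egln1 themselves, which closes a feedback loop. Much of this control acts on protein stability and enzyme activity, which arrays do not measure. In fat tissue the pathway is known for its part in the hypoxia of expanding depots.

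RNA came from abdominal white adipose tissue (WAT) of female C57/BL6 mice of 30 wk, wildtype (WT) or transgenic for human NAG-1 (hNAG-1, also known as GDF15, a secreted protein of the TGF-beta superfamily). The hNAG-1 mice were of 1 transgenic line. The transgene is active in most tissues and strongly in fat, and the promoter that drives it was not given in the sources used here. Each genotype had 3 arrays, and each array held RNA pooled from 2 mice, so 6 mice per genotype were sampled. The transgene is human, and no probe for it was used to check the genotypes. The comparison asks which genes differ in RNA level in the fat of hNAG-1 mice. The paper's methods name an Affymetrix array, whereas the deposited files come from Agilent whole mouse genome arrays.

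The processed signal, which is a spot's brightness once the scanner software has taken off its background, is the value measured. It was divided by the 75th percentile of its array and put on the log2 scale, and is called the log2 level here. That percentile was 957.6 to 1028.5 on the WT arrays and 657.3 to 896.0 on the hNAG-1 arrays, so the scaling lifts the hNAG-1 values. A first slide carried all WT arrays together with replicate 1 of hNAG-1. The other slide carried replicates 2 and 3 of hNAG-1 and no WT array. All 10 adipocyte markers were measured and had log2 fold changes above 0 with this scaling, though with quantile normalization 6 were above and 4 below 0. Their summed level, in units of the array's 75th percentile, was 1760 to 2120 in WT and 2190 to 2620 in hNAG-1. In a piece of tissue, fewer cells of a type and less RNA per cell cannot be told apart.

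No member passed an adjusted p of 0.05 in limma with Benjamini-Hochberg adjustment over all genes, and neither did any other gene (0.0% of 21059; smallest adjusted p 0.167). At an unadjusted p under 0.05, limma gave 1 member higher (Egln3) and 1 lower (Hif1a) in hNAG-1 mice, where 9.66% of all genes were higher and 3.64% lower (13.3% together). The arrays of the genotypes did not overlap in 3 members, Egln3, Egln2 and Hif1a, against 20.9% of all genes. The 2 hydroxylase genes were higher, as were 15.0% of all genes, and Hif1a was lower, as were 5.94%. In all, 6 members had positive and 3 negative log2 fold changes. Of all genes 61.4% were above 0 and 38.6% below, with a median of 0.0813.

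**Figure D1:**
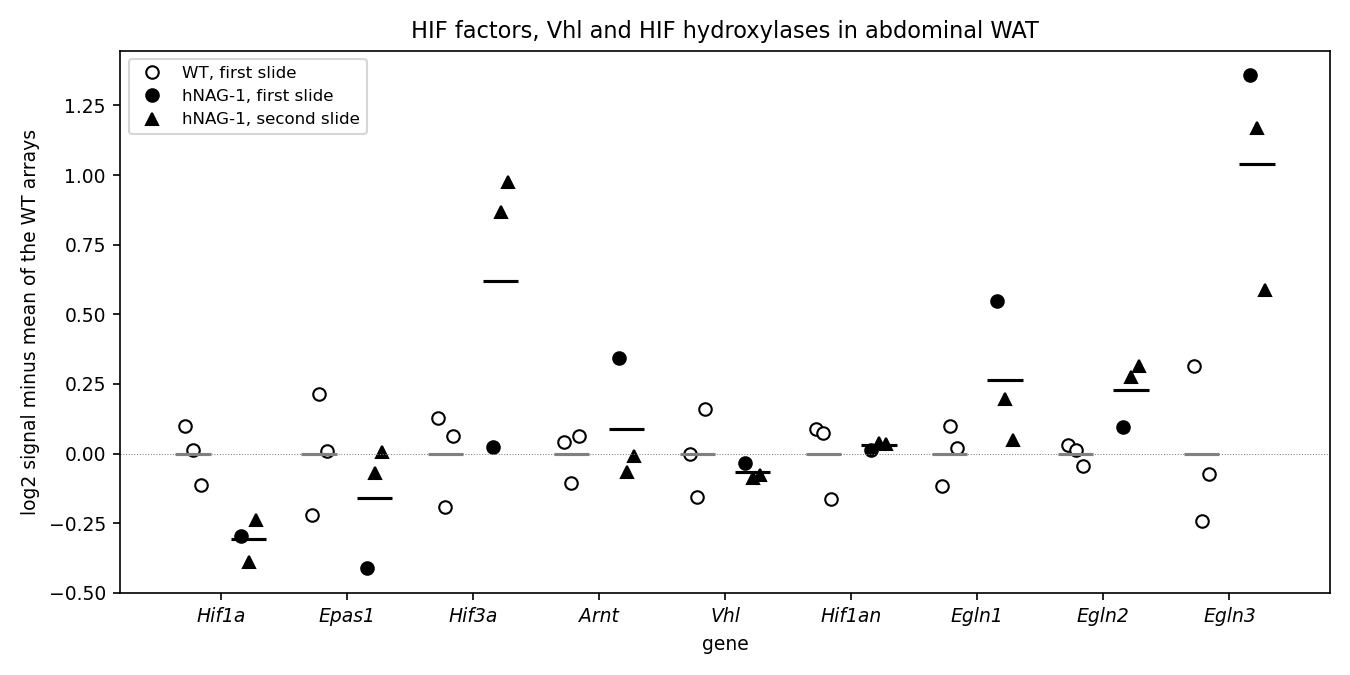
Log2 level of the 9 genes on each array minus the mean of the WT arrays (vertical axis, log2 units) by gene (horizontal axis), with 1 point per array of 2 pooled mice and lines at the means of 3 arrays; open points are WT, filled points hNAG-1, and triangles mark the second slide. Egln3 has the highest hNAG-1 mean (1.04), Hif1a lies below WT on every hNAG-1 array, and the hNAG-1 arrays of Hif3a split by slide.

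The 3 prolyl hydroxylase genes all had positive differences after scaling. Their promoters are shown because HIFs bind a short core, ACGTG or GCGTG, in the genes they activate. The sequences come from RefSeq, build GRCm38.p6, and run 5′ to 3′ in the direction of the gene from 250 bases before its start to 50 after. Both cores, searched on both strands, are in capitals, and an ACGTG that is read on both strands gives CACGTG. The windows are chr8:124949205-124949504 for Egln1, chr7:27166753-27167052 for Egln2 and chr12:54203825-54204124 for Egln3, all on the minus strand.
Egln1: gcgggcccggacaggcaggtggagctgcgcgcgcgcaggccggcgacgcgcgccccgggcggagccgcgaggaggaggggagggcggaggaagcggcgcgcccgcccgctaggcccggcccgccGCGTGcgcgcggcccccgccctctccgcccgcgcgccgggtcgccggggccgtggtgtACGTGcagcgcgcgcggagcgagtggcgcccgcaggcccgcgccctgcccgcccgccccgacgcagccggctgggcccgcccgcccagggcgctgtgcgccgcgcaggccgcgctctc
Egln2: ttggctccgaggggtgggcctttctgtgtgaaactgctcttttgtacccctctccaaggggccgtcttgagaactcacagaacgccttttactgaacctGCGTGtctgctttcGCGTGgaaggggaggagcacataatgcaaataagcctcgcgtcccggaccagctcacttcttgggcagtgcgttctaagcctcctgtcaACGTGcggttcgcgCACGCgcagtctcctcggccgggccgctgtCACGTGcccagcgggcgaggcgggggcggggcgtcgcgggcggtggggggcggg
Egln3: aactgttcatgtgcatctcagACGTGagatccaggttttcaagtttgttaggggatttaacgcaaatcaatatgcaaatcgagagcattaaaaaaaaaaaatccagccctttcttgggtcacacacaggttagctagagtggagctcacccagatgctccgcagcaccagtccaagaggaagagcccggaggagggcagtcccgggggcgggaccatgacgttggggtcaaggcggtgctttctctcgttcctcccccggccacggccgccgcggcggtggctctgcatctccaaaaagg
The Egln2 window held 6 matches, with 2 of them overlapping in CACGTG, a second start of the gene had 1, and the Egln1 window held 2. The Egln3 window, that of the gene with the largest difference, held 1 match, whose first base is at -229 from the start. Of the other members, the window of Hif1a, whose level was lower in hNAG-1 mice, held 3 matches, with 2 of them overlapping in CACGTG. The Hif3a window held 2, the Arnt window 1, and those of Vhl and Hif1an 0, and no window was available for Epas1. At least 1 match was present in 43.8% of 32851 promoter windows of this length. Of these windows 20.6% held 2 or more and 1.66% held 5 or more. A match is a run of letters, and HIF binding was not measured.

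Egln3 encodes PHD3, the prolyl hydroxylase whose transcript is the most readily induced by HIFs in many cells. The 1 probe for it (mm7, chr12:52198570-52198629) had log2 levels of -0.32, -0.88 and -0.71 in WT replicates 1 to 3. The hNAG-1 replicates were at 0.72, 0.53 and -0.05. All hNAG-1 arrays lay above all WT arrays, with a gap of 0.27 between the closest. The log2 fold change was 1.04 (standard error 0.255, 95% confidence interval 0.41 to 1.67), that is 2.05-fold, and the adjusted p in limma was 0.236 (unadjusted p = 0.00709). By unadjusted p Egln3 was number 633 of all genes, and 1.98% of all genes had a log2 fold change at least as high. Before scaling, the processed signal was 823.9, 521.3 and 603.4 in WT and 1477.8, 1070.2 and 635.1 in hNAG-1, so hNAG-1 replicate 3 was then below WT replicate 1.

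Within the slide that held both genotypes the log2 fold change of Egln3 was 1.36, and it was 0.88 without hNAG-1 replicate 1 and 1.26 without hNAG-1 replicate 3. It stayed between 0.80 and 1.36 over 18 alternatives, with an unadjusted p of 0.0283 or less and an adjusted p from 0.0967 to 0.891 in limma. The summed adipocyte level was also higher on every hNAG-1 array (2190 to 2620) than on every WT array (1760 to 2120). Among the hNAG-1 arrays Egln3 was highest in replicate 1, where that summed level was the lowest of the genotype. The part of adipocyte content in the Egln3 values was not tested. Skeletal muscle markers, of which 8 of 8 were measured, had summed levels of 45.1 to 220 in WT and 52.4 to 349 in hNAG-1. They were highest in hNAG-1 replicate 2 and WT replicate 1, and their part in the Egln3 values was not tested.

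Egln1 encodes PHD2, the main oxygen sensor for HIF-1 in most cells. Its brightest probe was at 0.74, 0.95 and 0.87 in WT and at 1.40, 1.05 and 0.90 in hNAG-1. The genotypes overlapped, and hNAG-1 replicate 1 stood highest. They differed by 0.26 (standard error 0.163, interval -0.14 to 0.67, adjusted p = 0.53). Its other probe was at 0.14 (standard error 0.122). Before scaling, the brightest probe had processed signals of 1713.4, 1853.5 and 1808.1 in WT and 2367.8, 1530.7 and 1228.7 in hNAG-1. Replicates 2 and 3 of hNAG-1 were then below every WT array, so the direction of Egln1 rests on the scaling between arrays. Within the shared slide the brightest probe was at 0.55, and without hNAG-1 replicate 1 it was at 0.12. With slide as a block in limma it was also at 0.55, with an adjusted p of 0.596 (unadjusted p = 0.0266).

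Egln2 encodes PHD1. Its 1 probe was at 1.29, 1.27 and 1.21 in WT and 1.35, 1.53 and 1.57 in hNAG-1. The arrays did not overlap, though the gap was 0.06. The log2 fold change of 0.23 had a standard error of 0.111 and an interval of -0.04 to 0.50 (adjusted p = 0.44), and it was 0.09 within the shared slide. Unscaled processed signals ran the other way, at 2282.3 to 2509.0 in WT and 1951.9 to 2282.9 in hNAG-1, so the direction of Egln2 rests on the scaling between arrays. With quantile normalization it was at 0.18.

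Hif1a, the oxygen-regulated subunit of HIF-1, was lower in hNAG-1 mice at the unadjusted level. Its 1 probe was at 1.38, 1.29 and 1.17 in WT and at 0.98, 0.89 and 1.04 in hNAG-1. Every hNAG-1 array lay below every WT array, by 0.13 at the closest. The log2 fold change was -0.31 (standard error 0.113, interval -0.59 to -0.03), which is 0.808 of the WT level, and the adjusted p in limma was 0.352 (unadjusted p = 0.0355). The value was -0.29 within the shared slide. Before scaling, the processed signals were 2215.9 to 2675.0 in WT and 1350.3 to 1771.9 in hNAG-1. The hNAG-1 arrays were dimmer as a whole, with 75th percentiles of 657.3 to 896.0 against 957.6 to 1028.5. The unscaled gap by itself therefore does not show a lower Hif1a level. Over 18 alternatives Hif1a was between -0.36 and -0.22, with an unadjusted p under 0.05 in 8 of them. The value nearest 0 came from normexp and the 75th percentile. Relative to the median of all genes Hif1a was at -0.02 there, so it was not set apart from other genes, and at -0.39 in the comparison reported. Macrophages also express Hif1a. Of 9 macrophage markers 8 had negative log2 fold changes, with a median of -0.24. Arrays did not overlap in 3 of them, all lower (33.3%, against 5.94% of all genes). The summed levels were 116 to 150 in WT and 125 to 130 in hNAG-1, and the brightest marker, Lyz2 (-0.03), weighs most in that sum. The part of macrophage content in the Hif1a values was not tested.

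Epas1 encodes HIF-2alpha, which is abundant in endothelial cells and is also present in adipocytes. Its brightest probe, designed to a cDNA clone (AK087208) and not to the reference transcript, was at 0.78, 1.22 and 1.01 in WT and 0.59, 0.93 and 1.01 in hNAG-1. The genotypes overlapped. They differed by -0.16 (standard error 0.176, interval -0.59 to 0.28, adjusted p = 0.72). It was -0.41 within the shared slide and -0.03 without hNAG-1 replicate 1. A second probe, which carries the accession of the reference transcript and lies 32.8 kb further along on chromosome 17, had the opposite sign, at 0.19 (standard error 0.171). Endothelial markers, 10 of 10 measured, summed to 46.0 to 68.3 in WT and 42.3 to 58.5 in hNAG-1, with 7 of 10 negative, and their part in the Epas1 values was not tested.

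Hif3a, whose gene yields several transcripts including short forms that inhibit HIF-1, gave opposite results at its 2 probes. The probe that was well above background on all arrays, on chromosome 7 from 14799402 to 14799461 (mm7), was at -4.12, -4.44 and -4.18 in WT and -4.22, -3.38 and -3.27 in hNAG-1. The first of these hNAG-1 arrays, on the slide of the WT arrays, lay among them, and the other two stood above. The mean difference was 0.62 (standard error 0.279, interval -0.07 to 1.31, adjusted p = 0.412). It was 0.02 within the shared slide and 0.92 without hNAG-1 replicate 1 (unadjusted p = 0.00208, adjusted p = 0.234, limma). With normexp background correction and the 75th percentile the sign turned, to -0.21. For this probe the slide and the genotype cannot be told apart on the second slide.

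The other Hif3a probe lies 16.1 kb away, toward the start of the gene, and is shown because the opposite result rests on it.
Hif3a probe A_52_P288284: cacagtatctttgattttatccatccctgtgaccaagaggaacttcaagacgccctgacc
It was well above background on 2 of 3 WT arrays and on no hNAG-1 array, and was therefore left out of the fit. Its log2 levels were -5.50, -5.61 and -6.32 in WT and -6.49, -7.62 and -7.91 in hNAG-1, all hNAG-1 arrays being lower. This probe also split by slide. Against the WT mean, hNAG-1 replicate 1 on the shared slide was at -0.68, and replicates 2 and 3 on the second slide were at -1.95. The measured means were -5.81 and -7.34. With each hNAG-1 array raised to the dimmest signal that counted there as well above background, the WT mean was 1.3-fold higher (log2 0.38). That WT mean includes 1 array that was itself not well above background, so the figure is not a strict bound. Which transcripts each probe reads was not tested.

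Arnt, the partner that every HIF alpha subunit needs to bind DNA, had 4 probes, which did not share a sign. The brightest, designed to a cDNA clone and not to the reference transcript, was at 0.69, 0.54 and 0.71 in WT and 0.99, 0.58 and 0.64 in hNAG-1. It differed by 0.09 (standard error 0.148, interval -0.28 to 0.46, adjusted p = 0.817), and the genotypes overlapped. The others were at -0.20, -0.13 and 0.27, with standard errors of 0.172 to 0.238. The probe at -0.20 is the one that carries the accession of the reference transcript. Within the shared slide the brightest was at 0.34, and without hNAG-1 replicate 1 it was at -0.04.

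Vhl, which recognizes the hydroxylated alpha subunits, was at 0.42, 0.26 and 0.58 in WT and 0.39, 0.33 and 0.34 in hNAG-1. The hNAG-1 arrays lay within the range of WT. They differed by -0.07 (standard error 0.121), and the interval of -0.37 to 0.23 bounds it at 0.776 to 1.18 of the WT level. Hif1an, also called FIH, which blocks the binding of coactivators to HIF-1, was at -0.78, -0.80 and -1.03 in WT and -0.86, -0.83 and -0.84 in hNAG-1 at its brightest probe. The groups again overlapped, with a log2 fold change of 0.03 (standard error 0.115, interval -0.26 to 0.31) that turned to -0.06 with normexp and the 75th percentile. The dimmest of the 3 Hif1an probes, with processed signals of 25.1 to 28.5 on all arrays, was at 0.45 (standard error 0.147, unadjusted p = 0.0237, adjusted p = 0.325 in limma). Before scaling its WT signals (25.1 to 27.5) overlapped those of hNAG-1 (26.6 to 28.5). After scaling its genotypes did not overlap, as in 20.5% of the 31456 probes kept, and 12.9% of those probes had an unadjusted p under 0.05.

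**Figure D2:**
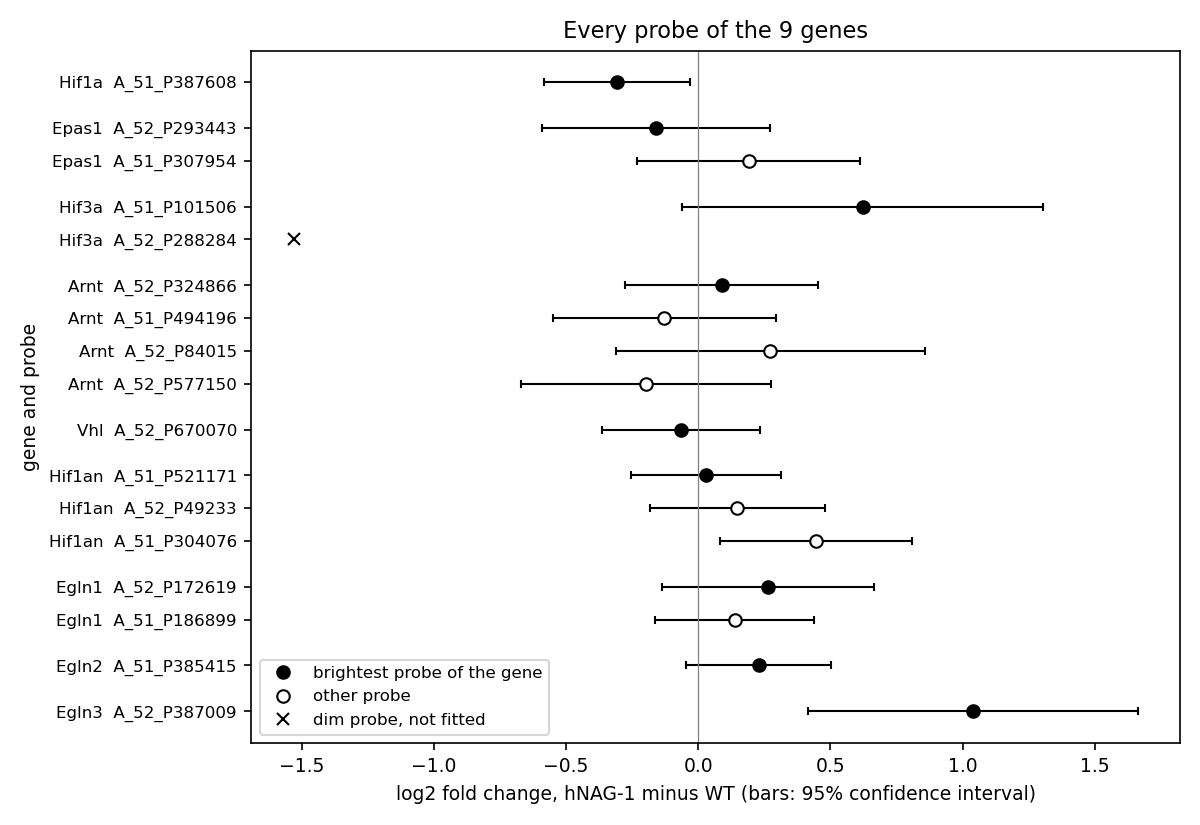
Log2 fold change of hNAG-1 over WT (horizontal axis, log2 units) for each of the 17 probes (vertical axis, gene and probe), with bars for the 95% confidence interval from limma over 6 arrays; filled points are the brightest probe of a gene, open points the others, and the cross is the Hif3a probe that was too dim to be fitted. Intervals lie wholly on one side of 0 for Egln3 (1.04), Hif1a (-0.31) and the dim Hif1an probe (0.45), and the probes of Epas1, Arnt and Hif3a fall on both sides.

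**Figure D3:**
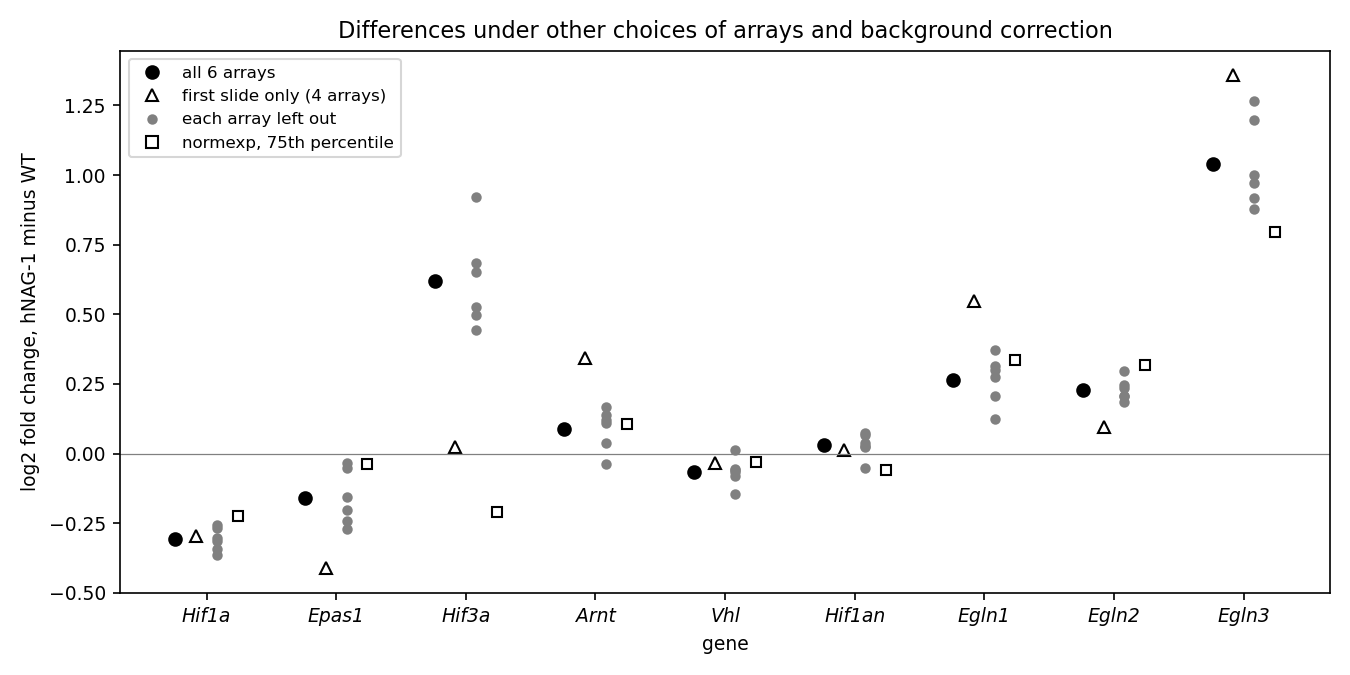
Log2 fold change of hNAG-1 over WT (vertical axis, log2 units) for the 9 genes (horizontal axis) with all 6 arrays (black), the 4 arrays of the first slide (triangles), each array left out in turn (grey) and normexp background correction scaled to the 75th percentile (squares). Egln3 lies between 0.80 and 1.36 and Hif1a between -0.36 and -0.22, whereas Hif3a is at 0.02 on the first slide and at -0.21 with normexp.

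The genes whose levels ran most closely with Egln3 over the 6 arrays, by Pearson correlation, were an unnamed transcript (r = 0.9958), the protein methyltransferase gene Armt1 (r = 0.9949) and Arfrp1, a small GTPase of the Golgi (r = 0.9918). The most opposed were Smad7, an inhibitor of TGF-beta signaling (r = -0.9943), Mcam, a cell adhesion molecule of vessels (r = -0.9924), and a second unnamed transcript. Armt1 had a log2 fold change of 0.62 and Smad7 of -0.81. These 6 arrays share slides and a genotype difference, and 565 genes (2.68%) had r above 0.9 with Egln3.

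Genes that HIFs are known to activate went both ways. Of 45 listed targets 42 were measured, among them the members Egln1, Egln3 and Hif3a; 23 had positive and 19 negative log2 fold changes, with a median of 0.04. None passed an adjusted p of 0.05 in limma. At an unadjusted p under 0.05 there were 8 higher (19.0% of the list, against 9.66% of all genes) and 6 lower (14.3%, against 3.64%). The arrays of the genotypes did not overlap in 15 targets, or 35.7%, against 20.9% of all genes.

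Pdk1, a kinase that inhibits pyruvate dehydrogenase, had the smallest p of the list. It was at 2.02, 1.35 and 1.59 in WT and 3.10, 3.03 and 2.84 in hNAG-1, so that every hNAG-1 array was higher. They differed by 1.34 (standard error 0.2, adjusted p = 0.167). Over 17 alternatives the adjusted p of Pdk1 in limma ran from 0.0313 to 0.891. It was lowest where limma's variances were robust and followed the intensity. Aldoa, the glycolytic aldolase, was at 8.35, 8.30 and 8.57 in WT and 9.03, 9.21 and 8.97 in hNAG-1, a difference of 0.66 (standard error 0.131, adjusted p = 0.197) that was 0.29 with quantile normalization and 0.81 with normexp and the 75th percentile.

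Ddit4, a brake on mTOR complex 1 that hypoxia and glucocorticoids induce, was at 4.84, 4.25 and 3.79 in WT and 2.76, 2.63 and 3.30 in hNAG-1. Its log2 fold change was -1.40 (standard error 0.318, adjusted p = 0.217). All hNAG-1 arrays were lower than all WT arrays. Within the shared slide Pdk1, Aldoa and Ddit4 were at 1.45, 0.63 and -1.54.

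The targets were also grouped by role, after their values had been seen, and these groups carry no test. All 7 measured glycolytic enzymes were above 0, between 0.10 for Tpi1 and 0.66 for Aldoa, with a median of 0.56 (0.63 within the shared slide), but with quantile normalization Tpi1 was at -0.08 and the median at 0.38. In the comparison reported limma gave 5 of these an unadjusted p below 0.05, against 9.66% of all genes higher at that level and 61.4% above 0. The adipocyte markers moved the same way, with 10 of 10 above 0 and a median of 0.31 (0.08 with quantile normalization). Of these markers 5 were higher without overlap, against 15.0% of all genes. The part of adipocyte content in the glycolytic values was not tested. The 5 glucose and lactate carriers and glycolysis regulators, Pdk1 among them, formed a separate group and were mixed. Of these 3 were above and 2 below 0, with a median of 0.11 and Pfkfb3 lowest at -0.36. Within the shared slide only 1 of them was above 0, and the median was -0.05. All 3 collagen-modifying enzymes, P4ha1, P4ha2 and Lox, were below 0, with a median of -0.40 (-0.27 within the shared slide). Of 8 fibroblast markers 6 were also below 0, with a median of -0.32 and Col1a1 at -0.60, and their part in the collagen-modifying values was not tested. Of 7 genes for secreted proteins 5 were below 0 (median -0.03, but -0.66 within the shared slide and -0.28 with quantile normalization). In limma 3 of them, Edn1 (-0.96) and Adm (-0.62) included, had an unadjusted p under 0.05, against 3.64% of all genes lower. Vegfa, the best known of the secreted targets, was at 0.44 (standard error 0.199, adjusted p = 0.415). The glucose transporter gene Slc2a1 was at 0.11 (standard error 0.156), and the genes for transcription and chromatin regulators were divided, with 3 above and 3 below 0.

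**Figure D4:**
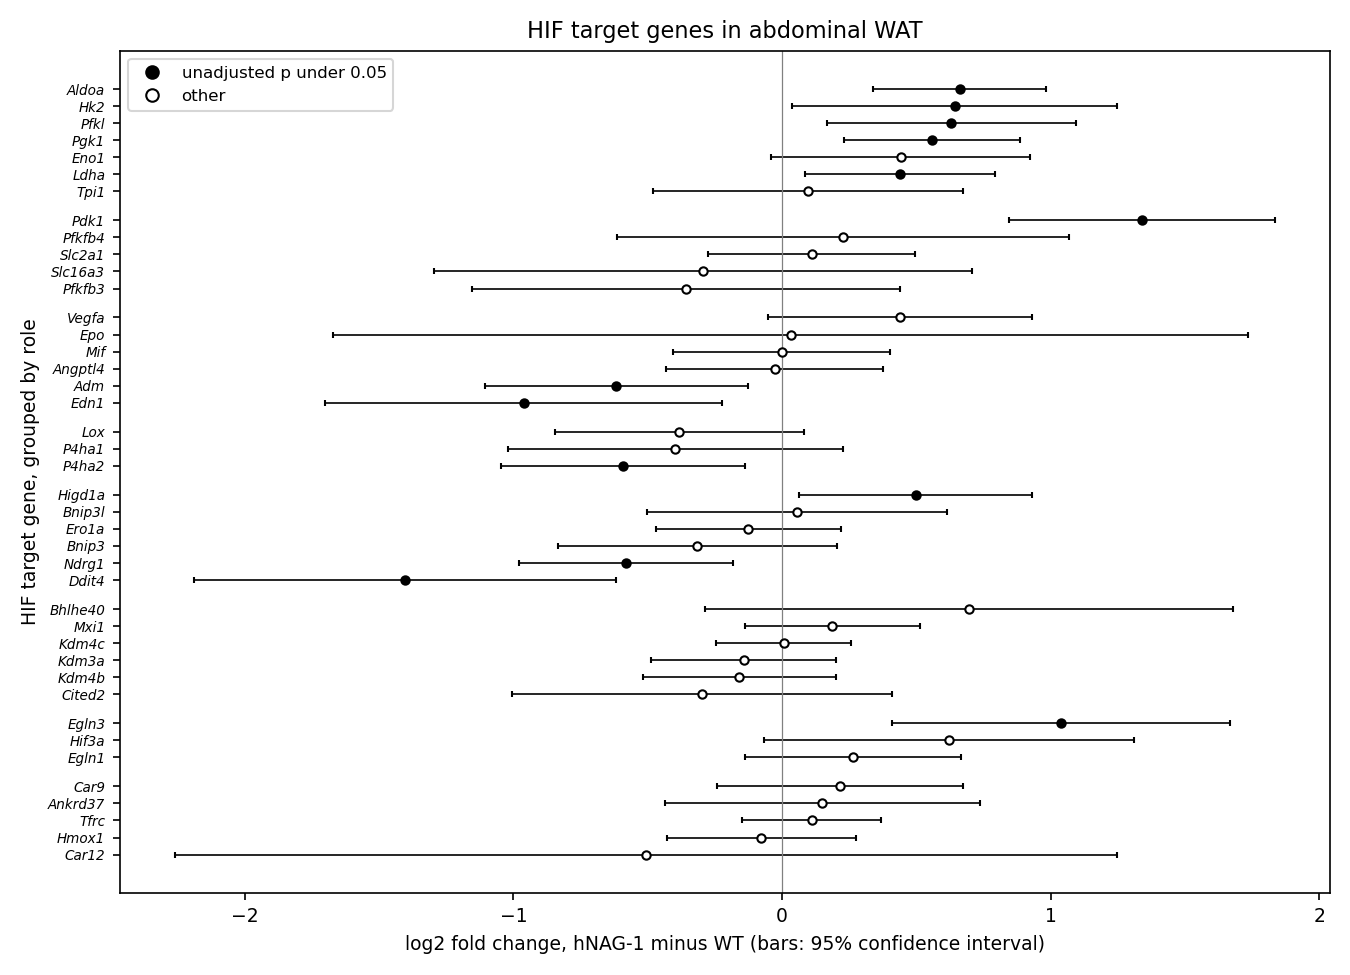
Log2 fold change of hNAG-1 over WT (horizontal axis, log2 units) for 41 of the HIF target genes (vertical axis), grouped by role from glycolytic enzymes at the top to other targets at the bottom, with bars for the 95% confidence interval from limma; filled points have an unadjusted p under 0.05 and open points do not. The 7 glycolytic enzymes lie right of 0 (with quantile normalization Tpi1 does not), Pdk1 is at 1.34 and Ddit4 at -1.40.

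The listed partners of the pathway were also mixed. Of 23 listed genes 22 were measured, 14 above and 8 below 0, with a median of 0.05 and none past an adjusted p of 0.05 in limma. At an unadjusted p under 0.05 there were 3 higher (13.6%) and 1 lower (4.55%), which was P4ha3, near the share of all genes. Rwdd3, also called RSUME, which promotes sumoylation, was at -0.87, -1.0 and -1.54 in WT and 0.03, 0.01 and -0.09 in hNAG-1. The difference was 1.12 (standard error 0.197, adjusted p = 0.179). Over 17 alternatives the adjusted p of Rwdd3 in limma ran from 0.045, under that same variance model, to 0.891. Usp20, a deubiquitinase that binds Vhl, was at 0.70 (standard error 0.18, adjusted p = 0.249), and Rbx1, the RING subunit of the Vhl ligase, at 0.31 (standard error 0.124, adjusted p = 0.373). P4ha3, a collagen prolyl hydroxylase of the endoplasmic reticulum that does not act on HIFs, was well above background on all WT arrays and on 1 of 3 hNAG-1 arrays. Its measured difference of -1.89 (adjusted p = 0.361) rests on 2 arrays near background, and it was -0.19 with normexp and quantile normalization and -2.71 without hNAG-1 replicate 3. The elongin genes Elob and Eloc, subunits of the same ligase as Vhl, were at 0.08 and 0.05.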

How the data were processed

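Total RNA was labelled with Cy3 and hybridised to single-colour arrays. The authors deposited the scanner output of Agilent Feature Extraction 9.5 (per the submitters' processing notes), whose values are spot intensity, and a table of the same processed signal. All 45018 rows of that table equalled the scanner values within 0.1%. Within each array the software had subtracted a fitted spatial surface and detrended the signal; nothing was normalized between arrays.

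After removal of 1639 control spots and of spots with an outlier flag, repeat spots were averaged. The processed signal was divided by the 75th percentile of its array and log2 transformed. A probe had to be well above background on 3 or more of the 6 arrays (31456 probes), and the brightest stood for its gene. Of 41174 probes 22951 were named by accession, 6659 by symbol and 3109 by synonym in RefSeq (GRCm38), and 8455 kept the file's name. The genotype effect was fitted in limma 3.58.1 (lmFit, eBayes; R 4.3.3), two-sided, without covariates, and the script was tested on simulated data. The pools are of different mice, and having 3 arrays a group limits the precision. Arrays correlated at 0.965 to 0.988. Named genes are the members, the 4 genes with the smallest p of each list (members excepted; 1 of these is not reported here) and the 3 genes most and least correlated with Egln3; others were named after their values were seen. Members and lists were chosen with earlier results of these data known. Of the marker lists, summed levels overlapped between genotypes for fibroblasts (459 to 534 in WT, 419 to 492 in hNAG-1), smooth muscle and mural cells (64.9 to 376 and 59.9 to 91.8), exocrine pancreas (3.92 to 17.9 and 4.92 to 5.36) and red blood cells (39.7 to 55.0 and 39.9 to 49.7), and not for mesothelium (67.9 to 69.5 and 50.7 to 65.5). Of 6 smooth muscle and mural markers 5 were below 0, with a median of -1.36. Their summed level was 303 and 376 on WT replicates 1 and 2 and 64.9 on WT replicate 3. Their part in the member and target values was not tested. Slide, normalization, background correction, filters, choice of probe, variance model, pairing and single arrays were varied. Protein sequences were not used here.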

Additional observations from a re-analysis of the deposited data

How the results depend on the processing

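No member passed an adjusted p of 0.05 under any alternative run, and Egln3, Egln1, Egln2 and Hif1a kept their sign in all of theirs. Leaving out each array in turn put Egln3 between 0.88 and 1.26, Arnt between -0.04 and 0.17, Vhl between -0.14 and 0.01 and Hif1an between -0.05 and 0.07. Signs turned for Epas1 with the mean of its probes (0.02) and at its second probe (0.19). They turned for Hif3a with normexp and the 75th percentile (-0.21). The other Hif3a probe was at -1.53 as measured, but no hNAG-1 array was well above background there, so its size cannot be read. Signs also turned for Arnt without hNAG-1 replicate 1 (-0.04) and at its probes at -0.13 and -0.20. For Vhl they turned without WT replicate 3 (0.01). For Hif1an they turned with normexp and the 75th percentile (-0.06) and without WT replicate 3 (-0.05). The cause was not tested. Normexp scaled to the 75th percentile, added after earlier results had been seen, moved the median of all genes to -0.201, and relative to the median Egln3 was at 1.00 with it and 0.96 without, Hif1a at -0.02 and -0.39, Egln1 at 0.54 and 0.18, Egln2 at 0.52 and 0.15, and Arnt at 0.31 and 0.01. On that relative scale signs turned for Epas1 (0.16 and -0.24), Vhl (0.17 and -0.15), Hif1an (0.14 and -0.05) and Hif3a (-0.01 and 0.54). The count of genes past the adjusted threshold, 0 in the comparison reported, was 162 with an intensity trend and robust variances (138 higher, 24 lower, Pdk1 and Rwdd3 among the higher at adjusted p = 0.0313 and 0.045) and 51 with normexp and quantile normalization. At an unadjusted p under 0.05 there were 2035 genes higher and 766 lower, against 1877 and 1291 with normexp and quantile normalization, 908 and 755 when slide entered as a fixed term, 615 and 700 on the shared slide alone, and 348 and 129 with normexp and the 75th percentile. They were 1068 and 590 without hNAG-1 replicate 2, 1328 and 498 without WT replicate 1, and 2192 and 1174 without WT replicate 3. The median of the HIF targets was -0.07 with quantile normalization, -0.02 with normexp and quantile normalization and -0.07 with normexp and the 75th percentile; the partner median was -0.08, -0.08 and 0.13. Leaving out each array gave 0.02 to 0.08 for the targets and 0.02 to 0.06 for the partners. With the replicate number as a block Egln3 was at 1.04 (unadjusted p = 0.00571, adjusted p = 0.278 in limma), no gene passed (0), and the unadjusted counts were 1649 and 863. Same-numbered arrays had correlations of 0.0977, 0.512 and 0.0949 between their deviations, and 0.512 was the highest of all pairs. WT replicate 1 correlated best with hNAG-1 replicate 3 (0.148). Deviations of 3 arrays from their own mean depend on each other, so these correlations cannot settle whether the arrays were paired. Low processed signals limit what can be read from both Hif3a probes, the dimmest of Hif1an and the Arnt probes at 0.27 and -0.20 (37.2 to 116.9).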
